A study of Homo sapiens with 12 samples.

Results

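Long intergenic non-coding RNA genes that were expressed in Hodgkin lymphoma cell lines, control B-cell lines and phorbol ester-treated leukaemia cells were examined in 12 RNA-Seq libraries. A gene was included where its symbol was LINC followed only by digits and its mean level over the 2 libraries of a condition reached 1 FPKM (fragments per kilobase of transcript, scaled to the fragments mapped in the library) in at least 1 of the 6 conditions. This rule gave 201 genes of the 870 so named, in a table of 26210 genes. The remaining LINC genes comprised 267 that were listed at 0 in every library and 402 that were above 0 but did not reach 1 FPKM. The series addressed how long terminal repeat elements shape gene expression in classical Hodgkin lymphoma (cHL). Total RNA depleted of ribosomal RNA was sequenced in duplicate from the cHL lines KM-H2, L1236 and L428, which were grown in IMDM, and from the control lines Namalwa, derived from a Burkitt's lymphoma, and Reh, a B-cell precursor leukaemia line labelled as Pro-B lymphoblastic leukemia, which were grown in RPMI. In the sixth condition, Reh_PMA, Reh cells received phorbol myristate acetate (PMA) at 2 ng/ml, for a time that was not given in the sources used here for these libraries. Each line is a single established culture carrying its own genetic changes, so the type of lymphoma, the medium and the line cannot be told apart.

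Genes in the LINC series are named in order of entry, so a shared prefix implies no shared sequence or function. As a class, long non-coding RNAs tend to be transcribed at lower levels and in fewer cell types than messenger RNAs, and some act in the nucleus near their own locus while others work in the cytoplasm as protein or microRNA binding partners. B cells and their tumours express many of them, and PMA, which activates protein kinase C and through it NF-κB and AP-1 factors such as FOS and JUN, induces transcription within hours. All 201 symbols matched a RefSeq gene. In that annotation 189 were long non-coding RNA genes, 41 had received a new symbol and 10 were listed as protein-coding. The 10 include small proteins such as MTLN (LINC00116), a mitochondrial micropeptide, NBDY (LINC01420), which associates with mRNA decapping proteins, and the small membrane proteins SMIM26 (LINC00493) and SMIM30 (LINC00998), and also known larger proteins such as the nuclear envelope protein SYNE3 (LINC00341).

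The libraries differed in ways that bear on low values. Total FPKM ranged from 659400 to 1125000 per library, and 10835 to 12115 genes reached 1 FPKM. Fragment counts were not used here, but the most frequent ratio between low values of 2 libraries gives the FPKM that a single fragment was worth relative to the first Reh library. A fragment was worth 2.59 and 1.7 times as much in KM-H2, 1.62 and 0.429 in L1236, 1.43 and 0.729 in L428, 0.999 and 1.14 in Namalwa, 1.02 in the other Reh library, and 0.635 and 0.6 in Reh_PMA, so low values were least precise in KM-H2. Values are given below in this order of the libraries. An exact 0 may be a failed estimate, since the broadly expressed genes RPL21, RPS28, EDF1 and PNRC2 were each listed at 0 in 1 library, and so may a value near 0. A set of 4 libraries, the second of L1236, the second of L428 and both of Reh_PMA, stood apart from the other 8, and they are the 4 in which a fragment was worth least. RPL21, a ribosomal protein gene, was at 0.0356, 0, 0.0474 and 0.0344 FPKM in the 4 and at 131.3 FPKM or more in the others, whereas EIF5AL1, a near-copy of the translation factor gene EIF5A, was at 8.97 to 16.2 FPKM in the 4 and at most 0.0835 FPKM in the others. In all, 26 genes were at 1 FPKM or more in each of the 4 and under 0.5 FPKM in the other 8, and 61 showed the opposite pattern, LINC00504, LINC00506 and LINC01138 among them. Sequencing is described for these libraries on a pair of instrument models, but which library was run on which is not given in the sources used here. As both Reh_PMA libraries and neither untreated Reh library are in this set, the set was added as a term to the fit, where the L1236 and L428 libraries estimate its effect, and the PMA results are given with and without that term. The set was chosen after the values were seen. Markers separated the cHL lines from the untreated control lines as summed lists but not in every member. Of 9 B-lineage genes 5 were lower in all cHL lines and none was higher, with PAX5 at 33.8 and 19.8 FPKM in L1236. Of 10 Hodgkin/Reed-Sternberg genes 6 were higher in all cHL lines and none was lower. Their summed mean was 426.9 to 1468 FPKM in the cHL lines, 86.2 in Namalwa, 110.4 in Reh and 421.0 in Reh_PMA. The summed mean of 9 B-lineage genes was 14.3 to 55.4 FPKM in the cHL lines, which are known to have lost B-cell identity, against 1299 in Namalwa and 990.9 in Reh, and the Hodgkin marker TNFRSF8 (CD30) was at 19.1 to 63.7 FPKM in the cHL libraries and at most 0.505 FPKM elsewhere. Precursor B-cell markers were mixed against the labels. RAG1 was higher in Reh (435 and 384 FPKM) than in Namalwa (35.7 and 19.2 FPKM) and DNTT was listed at 0 in Namalwa, but the surrogate light chain gene VPREB1 was listed at 0 in both Reh libraries and was at 11.4 and 7.89 FPKM in Namalwa. Markers of other lineages were low in most conditions, with exceptions in KM-H2 and Reh. Of 5 T-cell genes, 2 reached 1 FPKM in KM-H2 (summed mean 22.2 FPKM, with CD3E at 0.197 and 0), where the sum in the other conditions was 0.206 to 3.83. Of 6 myeloid genes, 2 reached 1 FPKM in Reh (summed mean 31.5 FPKM, MPO at 24.8 and 32.0), and the sum was 12.3 in KM-H2 and 0.312 to 8.23 in the others. Their part in the results was not tested.

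The expressed LINC genes were narrow in their expression. Of the 201, 85 (42.3%) reached 1 FPKM in 1 condition only and 30 (14.9%) in all 6, whereas 13.4% and 58.6% of the 15062 genes that met the same level did so. The rule used these levels, so the comparison is a description. Levels were also low. The median of the mean over all 12 libraries was 1.23 FPKM for the LINC genes (0.186 to 74.7) and 8.51 FPKM for all expressed genes. At the threshold, LINC00189 (1.06 FPKM in its highest condition), LINC00921 (1.08) and LINC01573 (1.09) were just inside, and LINC01055 (0.961), LINC01139 (0.957) and LINC01480 (0.946) were just outside.

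**Figure D1:**
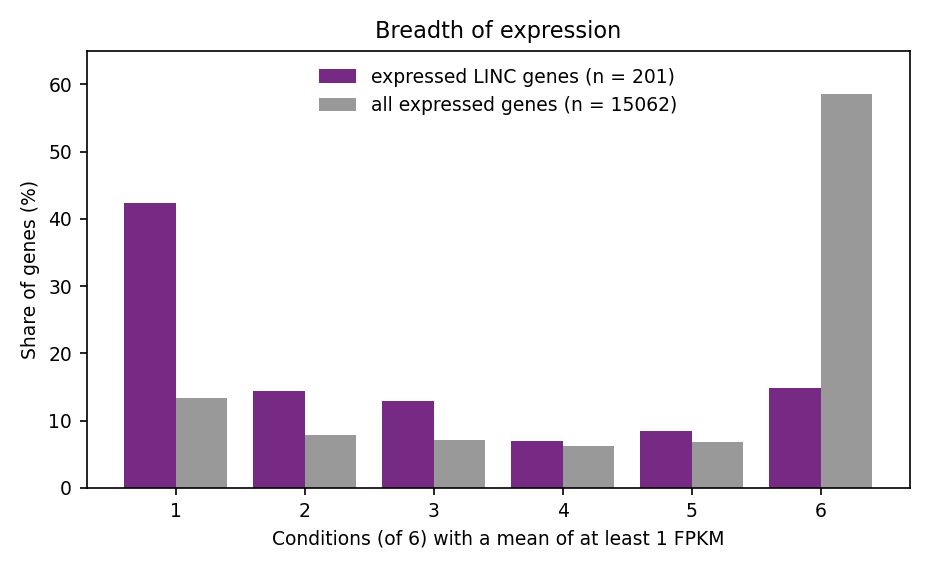
Share of genes (%) by the number of conditions, of 6, in which the mean of 2 libraries was at least 1 FPKM, for the 201 expressed LINC genes and for all 15062 expressed genes. LINC genes peak at 1 condition (42.3%) and all genes at 6 (58.6%).

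KM-H2 expressed the most LINC genes. At 1 FPKM or more there were 118 in KM-H2, 105 in L428, 89 in L1236, 80 in Reh, 77 in Reh_PMA and 73 in Namalwa. Of the 85 genes that reached this level in 1 condition, 35 (41.2%) did so in KM-H2, 17 in L428, 14 in Reh_PMA, 8 in L1236, 6 in Namalwa and 5 in Reh. KM-H2 was also the leading condition among all 2023 genes at this level in 1 condition, with 683 (33.8%). The KM-H2 libraries differed more from each other than the others did. The median absolute difference between both libraries was 0.475 for LINC genes on the log2(FPKM + 0.5) scale in KM-H2 and 0.145 to 0.32 elsewhere, and 81 of the 118 genes were higher in the KM-H2 library in which a fragment was worth more. The part of depth in the KM-H2 count was not tested. In the other direction, LINC00504 (13.3 and 4.58 FPKM in Reh) and LINC00506 (7.19 and 2.05 FPKM) were listed at 0 in both Reh_PMA libraries and were at most 0.137 FPKM in the second libraries of L1236 and L428, so that the Reh_PMA count includes the pattern of the 4 libraries.

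**Figure D2:**
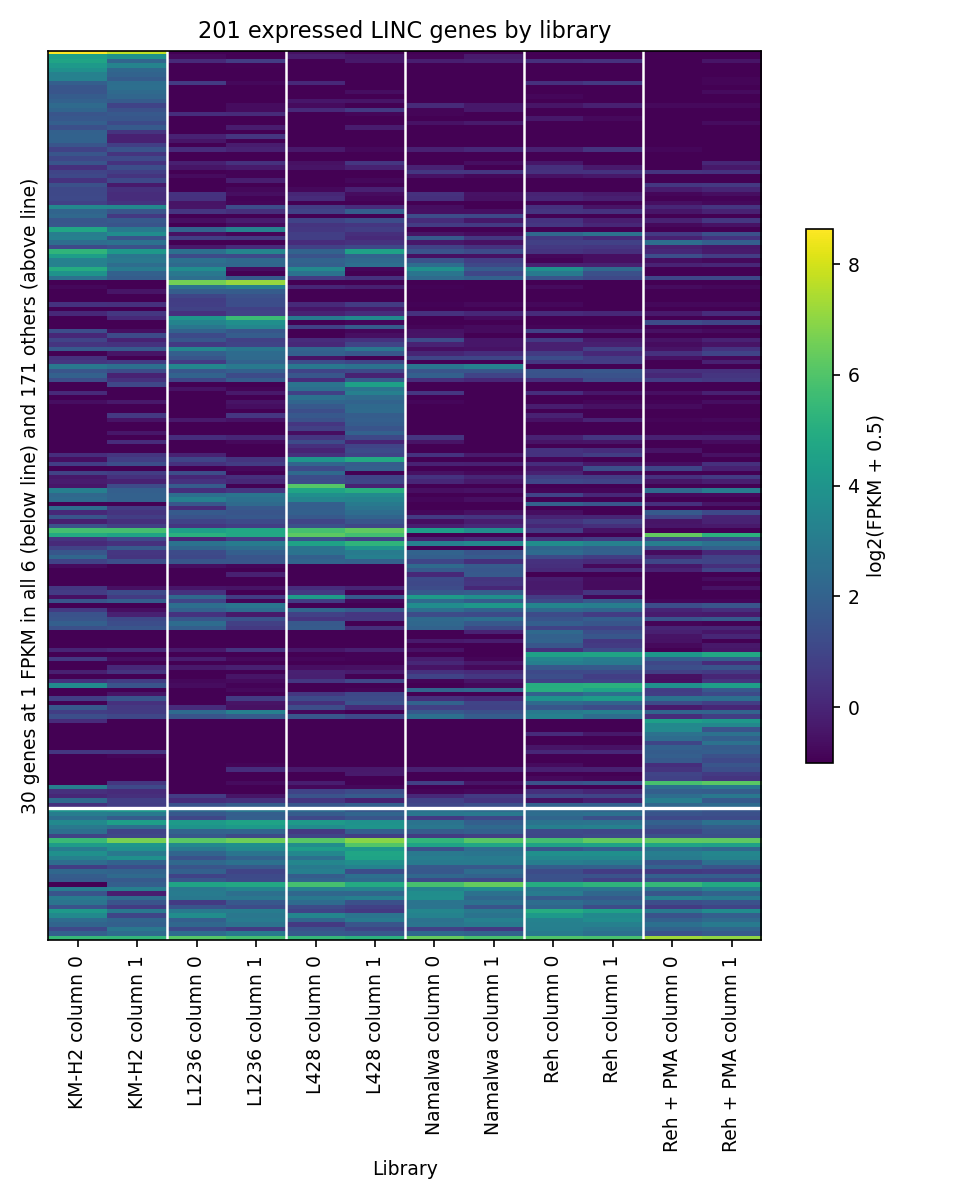
Level of the 201 expressed LINC genes (rows) in each of the 12 libraries (columns, 2 per condition) as log2(FPKM + 0.5), with genes grouped by the condition of their highest mean. The 30 genes below the horizontal line reached 1 FPKM in all 6 conditions, and blocks above it are high in 1 condition, the largest of them in KM-H2.

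Of the 6 highest LINC genes, 5 have a known product or role. LINC00493 (SMIM26) had the highest mean, 74.7 FPKM, and lay between 39.9 FPKM in a Namalwa library and 120.6 FPKM in an L428 library. LINC00657 (NORAD), a cytoplasmic RNA that binds PUMILIO proteins and guards chromosome stability, followed at 69.0 FPKM. The only gene of the 6 that reached 1 FPKM in a single condition was LINC01287 (50.4 FPKM over all libraries), described with the KM-H2 genes below. LINC00998 (SMIM30) was at 24.2 to 80.7 FPKM in the 10 libraries of the other conditions but at 0 and 3.32 FPKM in KM-H2. LINC01420 (NBDY) showed a gap in another line. It was at 53.9 and 55.7 FPKM in KM-H2, 21.2 and 26.6 in L1236, 54.4 and 77.5 in L428 and 21.0 and 12.8 in Namalwa, whereas Reh held 1.18 and 0.206 FPKM and Reh_PMA was listed at 0 in both libraries. Of the other genes with a known role, LINC00467, a transcript studied in tumour cell growth, was at 38.9 and 17.3 FPKM in KM-H2 but at 0.874 and 0.731 in Reh, and LINC00094 (BRD3OS) stayed between 0.893 and 5.21 FPKM in every library. LINC00473, LINC00961, LINC00261 and LINC00472, which were also chosen as genes of known role, did not reach 1 FPKM in any condition.

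The PMA comparison asked which LINC genes respond to a stimulus that engages inflammatory signalling in a control B-cell precursor line. Genes known to respond to PMA were higher after treatment. All 12 genes of a PMA response list rose (11 with the term for the 4 libraries), including the immediate early gene EGR1, from 0.138 and 0.0349 FPKM to 62.1 and 76.2 FPKM. The list was chosen with earlier results of these data known, so its count is a description. Markers of the precursor state moved as well. Of 7 testable B-cell precursor genes 5 fell and none rose (summed mean 1471 to 173.0 FPKM), among them the recombinase gene RAG1, from 435 and 384 to 5.09 and 11.85 FPKM, and of 9 B-lineage genes 4 fell and 1 rose (summed mean 990.9 to 1239 FPKM). With the term, 4 precursor and 3 B-lineage genes fell and none rose. Of 10 Hodgkin/Reed-Sternberg genes 3 rose and none fell (summed mean 110.4 to 421.0 FPKM), and 5 rose with the term. The myeloid sum went from 31.5 to 8.23 FPKM, with MPO at 24.8 and 32.0 FPKM before and 6.44 and 5.00 FPKM after treatment; none of 3 testable myeloid genes passed the test, and 1 fell with the term. Their part in the change of the LINC genes was not tested. Of the 201 LINC genes, 27 rose (13.4%) and 37 fell (18.4%) by limma at an adjusted p of 0.05 (Benjamini-Hochberg over all genes tested). These shares were close to the background, as 14.5% of all 15062 genes rose and 16.9% fell. With the term for the 4 libraries, 26 LINC genes rose (12.9%, against 8.85% of all genes), 24 of them among the 27, and 27 fell (13.4%, against 10% of all genes), 24 of them among the 37. The median log2 difference without the term was -0.084 for the LINC genes and -0.034 for all genes. The call of lower genes depended on single libraries, as 15 to 24 fell when any 1 of the 4 Reh libraries was left out (15 without the first Reh_PMA library, 18 and 21 without either untreated library, 24 without the second Reh_PMA library), while 23 or more rose in every such fit. In bulk RNA, fewer expressing cells and less RNA per cell cannot be told apart. Nothing states that duplicates came from separate cultures, so p-values measure the spread between libraries, which may be technical.

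Most of the largest responses came from genes that were listed at or near 0 before treatment. Of the 27 that rose, 12 were listed at 0 in both untreated Reh libraries and 13 were under 1 FPKM in every other condition. Those 13 were included only through their level in Reh_PMA and so had to differ, and no p is given for them; likewise 5 of the 37 that fell were included only through untreated Reh. No fold is given for a gene listed at 0, and log2 differences are on the log2(FPKM + 0.5) scale. LINC00152 (CYTOR, cytoskeleton regulator RNA, hg19 chr2:87754300-87936259) was listed at 0 in both Reh libraries and was at 80.05 and 35.4 FPKM in Reh_PMA (difference 6.75 ± 0.35 SE, adjusted p = 6.33e-06 by limma). A large part of its transcripts, 61.2% of 50-base stretches, is also found in MIR4435-2HG, which moved alike (0 and 0 FPKM in Reh, 57.4 and 23.8 FPKM with PMA), so that reads of this gene pair may have been divided by the counting. LINC00702 (hg19 chr10:4243333-4286104) was listed at 0 in Reh and reached 21.1 and 17.3 FPKM. LINC00659 (hg19 chr20:61404332-61408348) was the strongest responder that was already present, going from 2.11 and 2.47 FPKM to 56.6 and 70.8 FPKM, a 27.8-fold rise (adjusted p = 0.000556 by limma).

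Several genes were seen with PMA and in no other condition above 1 FPKM. LINC01405 was listed at 0 in the 10 other libraries and at 10.8 and 10.9 FPKM in Reh_PMA. LINC00892, a neighbour of the CD40 ligand gene CD40LG, was at 11.05 and 2.28 FPKM, LINC00974 at 4.77 and 3.27 FPKM and LINC01571 at 1.51 and 5.71 FPKM, each listed at 0 in all other libraries. The 2 Reh_PMA libraries thus differed for LINC00892 and LINC01571, and both lost their call when the fit held the 4 Reh libraries only, as did LINC00936. Other responders were shared with cHL lines. LINC00996 rose from 0.0545 and 0.0556 FPKM to 4.50 and 7.86 FPKM (log2 difference 3.54 ± 0.4 SE, adjusted p = 0.000388 by limma). Its untreated values stand near the ratio of the worth of a fragment in both libraries, 1.02, so no fold is given. It was at 24.0 and 32.5 FPKM in L428, 8.34 and 3.32 FPKM in KM-H2 and 0.707 and 0.955 FPKM in L1236. LINC00299 went from 0 in both libraries to 5.46 and 6.84 FPKM (adjusted p = 0.000936 by limma) and was at 8.25 and 1.70 FPKM in KM-H2. Among abundant RNAs, LINC00657 (NORAD) rose 2.37-fold, from 62.8 and 57.5 FPKM to 155 and 129.5 FPKM, with no overlap of the libraries (difference 1.23 ± 0.22 SE, adjusted p = 0.00397 by limma), although 29.8% of its 50-base stretches occur in other transcripts. LINC00493 (SMIM26) was at 54.0 and 78.5 FPKM before and 77.9 and 75.6 FPKM after treatment (adjusted p = 0.764).

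**Figure D3:**
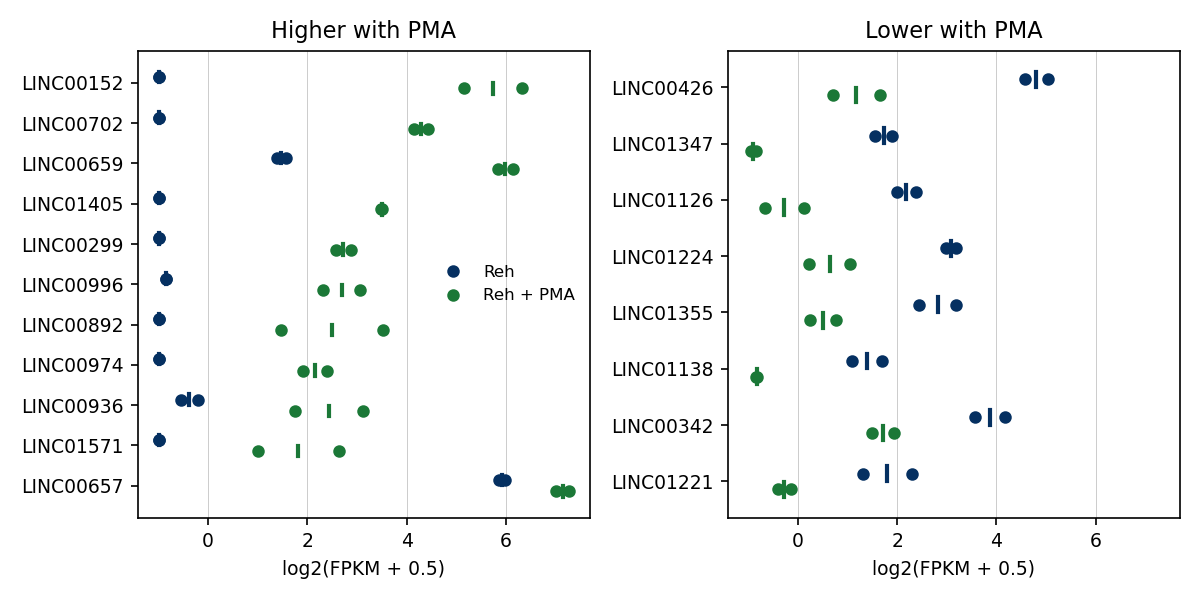
Level, as log2(FPKM + 0.5), of named LINC genes in untreated Reh (dark blue) and Reh treated with PMA (green); each point is a library and each bar the mean of 2. In the left panel 11 genes that rose are shown, 8 of them near the floor of -1 before treatment, and in the right panel 8 genes that fell, led by LINC00426.

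Promoter sequence was examined because PMA acts partly through AP-1. Its motif was searched as TGANTCA with any base at N, a pattern that reads the same on both strands. RefSeq windows of 300 bases (250 before and 50 after the transcript start, GRCh38.p14) were present for 21 of the 27 genes that rose, and 6 of these (28.6%) held the motif, compared with 1 of 29 (3.45%) for genes that fell, 11% of all LINC genes with a window and 7.8% of 27305 promoters. Of the 27, 13 were included only through their level in Reh_PMA, among them LINC00702 and LINC00892, which hold the motif. LINC00114, the 1 gene that fell and holds it, was included only through untreated Reh. Among the genes called with the term for the 4 libraries the motif was in 5 of 21 windows (23.8%) for those that rose and in 2 of 25 (8%) for those that fell. It was in 2 of 6 windows (33.3%) of genes higher in all cHL lines. These 2, LINC00152 and LINC00158, are also among the 6 genes that rose and hold the motif. The E-box CANNTG, bound by basic helix-loop-helix factors, was in 85.7% of the windows of genes that rose, 65.5% for those that fell and 68.9% of all promoters. The cyclic AMP response element TGACGTCA occurred in 0 of the 21 windows and in 2.0% of all promoters. A match is a description of letters and no evidence of binding. The windows of 4 genes that rose and hold the motif (in capitals) are printed 5′ to 3′, chr2:87455177-87455476 on the plus strand, chr10:4243863-4244162 on the minus strand, chrX:136639293-136639592 on the plus strand and chr6:134437466-134437765 on the plus strand, followed by that of LINC00659 (chr20:62776807-62777106, minus strand), which also rose but holds no such motif.
LINC00152: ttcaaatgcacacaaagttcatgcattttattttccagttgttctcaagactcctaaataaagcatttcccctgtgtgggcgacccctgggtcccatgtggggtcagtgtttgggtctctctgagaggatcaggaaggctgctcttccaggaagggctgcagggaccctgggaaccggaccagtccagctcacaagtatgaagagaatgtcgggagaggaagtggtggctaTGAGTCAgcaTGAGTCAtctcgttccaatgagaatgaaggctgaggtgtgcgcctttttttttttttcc
LINC00702: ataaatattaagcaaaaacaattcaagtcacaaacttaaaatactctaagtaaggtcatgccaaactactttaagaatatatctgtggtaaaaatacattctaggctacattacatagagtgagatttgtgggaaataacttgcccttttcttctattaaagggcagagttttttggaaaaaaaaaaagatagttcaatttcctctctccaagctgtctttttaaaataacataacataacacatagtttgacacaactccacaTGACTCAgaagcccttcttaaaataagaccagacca
LINC00892: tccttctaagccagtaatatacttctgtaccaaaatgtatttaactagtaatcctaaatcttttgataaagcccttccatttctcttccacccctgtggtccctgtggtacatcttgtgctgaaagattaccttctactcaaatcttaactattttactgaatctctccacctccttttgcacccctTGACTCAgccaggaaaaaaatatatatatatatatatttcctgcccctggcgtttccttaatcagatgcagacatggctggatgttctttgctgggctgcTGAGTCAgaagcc
LINC01010: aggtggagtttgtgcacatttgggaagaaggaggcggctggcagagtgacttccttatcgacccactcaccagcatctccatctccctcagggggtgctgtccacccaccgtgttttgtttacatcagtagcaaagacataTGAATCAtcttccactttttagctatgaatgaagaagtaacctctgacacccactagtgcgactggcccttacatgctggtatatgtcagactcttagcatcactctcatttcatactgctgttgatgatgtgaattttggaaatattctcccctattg
LINC00659: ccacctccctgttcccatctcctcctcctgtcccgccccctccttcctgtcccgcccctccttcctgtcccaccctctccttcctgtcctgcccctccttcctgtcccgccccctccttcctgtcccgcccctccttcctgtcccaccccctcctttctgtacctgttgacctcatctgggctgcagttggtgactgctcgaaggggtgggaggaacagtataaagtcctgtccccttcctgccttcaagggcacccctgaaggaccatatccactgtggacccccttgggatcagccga
The LINC00152 window carries the motif in 2 copies close to the start, the LINC00892 window carries it in 2 copies, and LINC00702 and LINC01010 carry 1 each. The copy in LINC01010 reads TGAATCA, whereas those in the other 3 windows read TGAGTCA or TGACTCA.

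Genes that rose with PMA often lay beside a coding gene that also rose. The nearest coding gene in the hg19 GENCODE annotation was testable for 22 of the 27 genes, and 14 of these neighbours rose while 2 fell, against 14.5% and 16.9% of all genes. Of the 14, 4 (GAS6, NTSR1, FLRT2 and KRT9) reached 1 FPKM in Reh_PMA only and so were bound to differ. With the term for the 4 libraries, 12 of these 22 neighbours rose and 1 fell. LINC00702 lies 415860 bases from KLF6, a zinc finger transcription factor, which went from 1.96 and 1.17 FPKM to 115 and 80.9 FPKM (log2 difference 5.58 ± 0.49 SE, adjusted p = 0.000101 by limma). LINC00299 lies 190561 bases from ID2, an inhibitor of E-protein transcription factors that direct B-cell development, which went from 8.48 and 10.3 FPKM to 246 and 333 FPKM (adjusted p = 0.000621). LINC01010, listed at 0 in Reh and at 1.87 and 1.51 FPKM in Reh_PMA, lies 25195 bases from the kinase gene SGK1, which went from 2.05 and 1.37 FPKM to 105 and 104 FPKM (adjusted p = 2.64e-05). In each of these 3 pairs the LINC gene stayed below its neighbour in FPKM, which is a level per length. The gaps ranged widely among the other pairs. LINC01510, named after its value was seen, lies with its nearer end, the 3′ end, 2415 bases from the caveolin gene CAV1, which rose from 2.21 and 1.56 to 262 and 145 FPKM. LINC00936 overlaps ATP2B1, a plasma membrane calcium pump, on the opposite strand, and rose from 0.180 and 0.366 to 8.20 and 2.86 FPKM beside 7.59 and 8.06 to 267 and 99.3 FPKM for ATP2B1. LINC00974 and the keratin gene KRT9 (0.482 and 0.882 to 32.3 and 28.6 FPKM) are on the same strand 11341 bases apart, and LINC00996 lies 2489 bases from GIMAP8, an immune-associated GTPase gene (0.127 and 0.180 to 1.87 and 4.82 FPKM). Whether transcripts run from one gene into the other was not tested, and counting by strand is not given in the sources used here. Pairs without agreement existed as well. CMPK2 fell from 8.06 and 10.5 to 0.489 and 2.04 FPKM beside LINC00487, which rose, and CD40LG, next to LINC00892, did not exceed 0.184 FPKM in a Reh library.

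**Figure D4:**
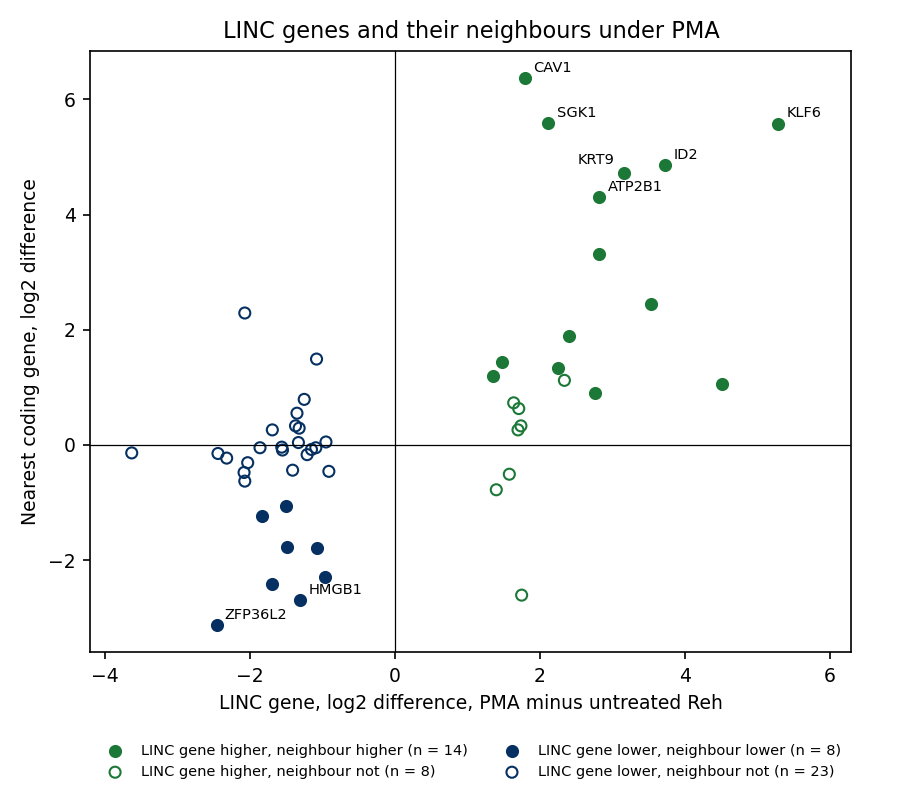
Log2 difference between Reh with PMA and untreated Reh, on the log2(FPKM + 0.5) scale, of the LINC genes that rose (green) or fell (dark blue) against that of their nearest coding gene; filled points are pairs that passed the test in the same direction. Of the genes that rose 14 of 22 neighbours rose, and of those that fell 8 of 31 neighbours fell.

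Among the 37 LINC genes that fell, LINC00426 changed most on the log2(FPKM + 0.5) scale. It went from 32.3 and 23.4 FPKM to 1.13 and 2.65 FPKM, a 14.8-fold drop (log2 difference -3.63 ± 0.32 SE, adjusted p = 9.04e-05 by limma). With the term for the 4 libraries its difference was -3.82 ± 0.45 SE (adjusted p = 0.0017 by limma). LINC01224 fell 7.11-fold, from 8.56 and 7.39 to 1.58 and 0.663 FPKM, and LINC01355 fell 7.24-fold, from 8.58 and 4.95 to 0.678 and 1.19 FPKM. The libraries of both conditions were well apart for all 3. LINC01126 went from 4.71 and 3.47 to 0.132 and 0.583 FPKM (adjusted p = 0.00368 by limma) and lies 604 bases from ZFP36L2, which encodes an RNA-binding protein that promotes mRNA decay and fell from 30.0 and 20.9 to 2.204 and 2.66 FPKM. LINC01221 fell from 4.39 and 1.98 to 0.402 and 0.253 FPKM. Other calls were less secure. LINC01138 went from 1.63 and 2.75 to 0.0625 and 0.0591 FPKM (adjusted p = 0.0274 by limma), but was also at 1.46 and 0.0464 FPKM in L1236 and at 1.198 and 0.0717 FPKM in L428. LINC01347 went from 3.20 and 2.45 to 0.0530 and 0.0167 FPKM (adjusted p = 0.0338 by limma) and was at 4.74 and 1.26 FPKM in L1236 and 2.71 and 0 FPKM in L428. Both were thus low in the 4 libraries that stood apart, and with the term for them the differences were -0.52 ± 0.39 SE and -0.5 ± 0.49 SE, with adjusted p of 0.392 and 0.526 by limma. They and LINC00342 (17.7 and 11.3 to 2.30 and 3.31 FPKM, adjusted p = 0.0491) lost their call in at least 4 of the fits that left out a library, and LINC00342 lost it with the term as well (adjusted p = 0.37 by limma), while 22.9% of LINC00342 by 50-base stretches occurs in other transcripts. Of 31 testable neighbours of the genes that fell, 8 fell and 3 rose, against 16.9% and 14.5% of all genes, and with the term 6 fell and 1 rose. The 8 included ETS2, a transcription factor gene beside LINC00114 (105 and 102 to 13.6 and 26.1 FPKM), and HMGB1, a chromatin protein gene beside LINC01058 (713 and 836 to 136 and 103 FPKM). HMGB1 was also lower in the second libraries of L1236 (93.8 and 27.9 FPKM) and L428 (126 and 27.9 FPKM), and with the term it and LINC01058 lost their calls (adjusted p = 0.235 and 0.151 by limma). The log2 difference of HMGB1 was -2.7 without the term and -0.76 with it, and that of LINC01058 was -1.31 and -1.15 ± 0.51 SE. LINC00461 fell from 1.41 and 0.585 to 0.102 and 0.108 FPKM while its neighbour MEF2C, a B-cell transcription factor gene, rose from 171 and 151 to 286 and 273 FPKM. Neither passed with the term (adjusted p = 0.0571 and 0.541 by limma). The log2 difference of LINC00461 was -1.25 without the term and -1.32 ± 0.41 SE with it, and that of MEF2C was 0.79 and 0.25.

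The second comparison asked which LINC genes separate the cHL lines from the control lines, where each of the 3 cHL lines had to pass the test against both Namalwa and untreated Reh in the same direction. Of the 201 genes, 12 were higher in all cHL lines, against 4.18% of all genes, and 4 were lower, against 3.2%. The shares of the LINC genes were 5.97% and 1.99%. Of the 12, 6 reached 1 FPKM in cHL lines only, and of the 4, 2 reached it in the control lines only. These were included through the lines in which they were high and so had to differ, and no p is given for them. Leaving out a library changed these counts, to 6 or 7 higher without either untreated Reh library or the second Namalwa library, and to 2 lower without the first L1236, the second L428 or the first Namalwa library. LINC00152 led, at 29.0 and 24.4 FPKM in KM-H2, 33.8 and 26.8 in L1236 and 72.7 and 51.8 in L428, and was listed at 0 in all 4 control libraries (smallest of the 6 log2 differences 5.76 ± 0.35 SE, largest adjusted p = 2.53e-06 by limma). MIR4435-2HG, with which it shares sequence, was at 7.91 to 56.9 FPKM in the cHL lines and at 0 to 0.640 FPKM in the control lines. LINC01605 was at 4.66 and 3.49, 8.62 and 5.44, and 10.1 and 9.48 FPKM in KM-H2, L1236 and L428, and at most 0.157 FPKM in a control library (smallest difference 2.89 ± 0.25 SE).

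The other genes higher in cHL lines differed in their profile among these lines. LINC00158 (20.5 and 6.31 FPKM) and LINC00944 (25.4 and 6.92 FPKM) were highest in KM-H2, and the KM-H2 libraries lay far apart for both. LINC00461 (MIR9-2HG), the host gene of a microRNA of the miR-9 family, was highest in L428 at 13.3 and 12.2 FPKM, with 4.23 and 3.44 in KM-H2, 5.07 and 6.14 in L1236, 0 and 0 in Namalwa and 1.41 and 0.585 in Reh (smallest difference 1.59 ± 0.28 SE). LINC01258 was at 0.614 to 6.03 FPKM in the cHL lines and listed at 0 in both control lines. LINC00158, LINC00944 and LINC01258 no longer passed with a pseudocount of 1 and in at least 6 of the 12 fits without 1 library. LINC00116 (MTLN) was present everywhere and was higher in cHL lines by degree, at 7.20 to 19.4 FPKM against 2.04 to 4.98 FPKM in the control lines (smallest difference 1.35 ± 0.41 SE, largest adjusted p = 0.0274 by limma). Of 7 testable neighbours of the 12 genes, 2 were also higher in all cHL lines. They were MARCKS, a protein kinase C substrate gene 4526 bases from LINC01268 (22.6 to 97.3 FPKM in cHL lines, at most 1.33 FPKM in control lines), and KLF3, beside LINC01258 (3.44 to 10.2 FPKM and at most 1.33 FPKM). The comparisons with PMA and with the control lines share the untreated Reh libraries, so their calls are not independent. Side by side, LINC00158 was at 0.0783 and 0.160 FPKM in Reh, 1.99 and 1.13 in Reh_PMA and 1.69 to 20.5 in the cHL lines, and LINC01160 was at 0.149 and 0, 2.84 and 1.70, and 0.579 to 4.95 FPKM. With the term for the 4 libraries LINC00158 no longer passed with PMA (adjusted p = 0.184 by limma) and LINC01160 did (adjusted p = 0.0124 by limma). The log2 difference of LINC00158 was 1.71 without the term and 1.43 ± 0.68 SE with it, and that of LINC01160 was 2.25 and 2.1 ± 0.41 SE. That term gave 10 genes higher and 3 lower in all cHL lines.

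The 4 genes that were lower in all cHL lines had little or no signal there. LINC00426 was at 0 to 0.0906 FPKM in the cHL libraries, 3.98 and 4.29 FPKM in Namalwa and 32.3 and 23.4 FPKM in Reh (smallest difference -3.09 ± 0.32 SE, largest adjusted p = 6.22e-05 by limma). LINC01224 was listed at 0 in all 6 cHL libraries, at 0.555 and 0.291 FPKM in Namalwa and at 8.56 and 7.39 FPKM in Reh. LINC01013, which overlaps the gene of the matrix-associated factor CCN2, was listed at 0 in the cHL lines against 2.71 and 2.53 FPKM in Namalwa and 0.616 and 0.637 FPKM in Reh. LINC01058 was at most 0.397 FPKM in cHL and 0.981 to 1.98 FPKM in the control lines. Calls of the last 3 were less secure, as LINC01224 lost its call in 7 and LINC01058 in 3 of the 12 fits without 1 library and LINC01013 in 1. The part of low values in this was not tested.

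The third comparison asked which LINC genes mark a single untreated line, being higher there than in each of the other 4. There were 36 in KM-H2 (background 6.73% of all genes), 17 in L428 (4.79%), 16 in Reh (5.6%), 9 in L1236 (4.99%) and 5 in Namalwa (2.98%), that is 17.9%, 8.46%, 7.96%, 4.48% and 2.49% of the LINC genes. Many reached 1 FPKM in 1 condition only (29 of the 36 in KM-H2, 11 of 17 in L428, 6 of 16 in Reh, 6 of 9 in L1236 and all 5 in Namalwa) and, where that condition was the line itself, entered through the level that made them differ, so nothing is read from these shares against the background. Of the 36 KM-H2 genes 24 were higher in the KM-H2 library in which a fragment was worth most. The Namalwa count moved by over 1.5 times on leaving out a library, to 3 without the second Reh library. Genes are given for each line in the order of the smallest of their 4 log2 differences on the log2(FPKM + 0.5) scale, which is not the order of their FPKM. LINC01287 (hg19 chr7:153052450-153111070) led in KM-H2, at 398 and 207 FPKM in KM-H2, 0.174 FPKM in an L428 library and 0 in the other 9 libraries (smallest difference 8.95 ± 0.3 SE). The nearest coding gene, DPP6, 334148 bases away, was also specific to KM-H2 but at 1.22 and 1.05 FPKM only. LINC00839 (17.6 and 9.41 FPKM), LINC01234 (21.4 and 14.0), LINC00993 (13.8 and 4.10) and LINC00645 (8.96 and 3.68) followed in KM-H2, with no value above 0.356 FPKM in another library. LINC00993 lies 15551 bases from ANKRD30A, a breast differentiation antigen gene, at 37.0 and 18.1 FPKM in KM-H2 and at most 0.158 FPKM elsewhere. In all, 4 of 26 testable neighbours of KM-H2 genes were themselves KM-H2-specific, against 6.73% of all genes. These 4 (NTRK3, ANKRD30A, DPP6 and POTEM) reached 1 FPKM in KM-H2 only and so were bound to differ.

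**Figure D5:**
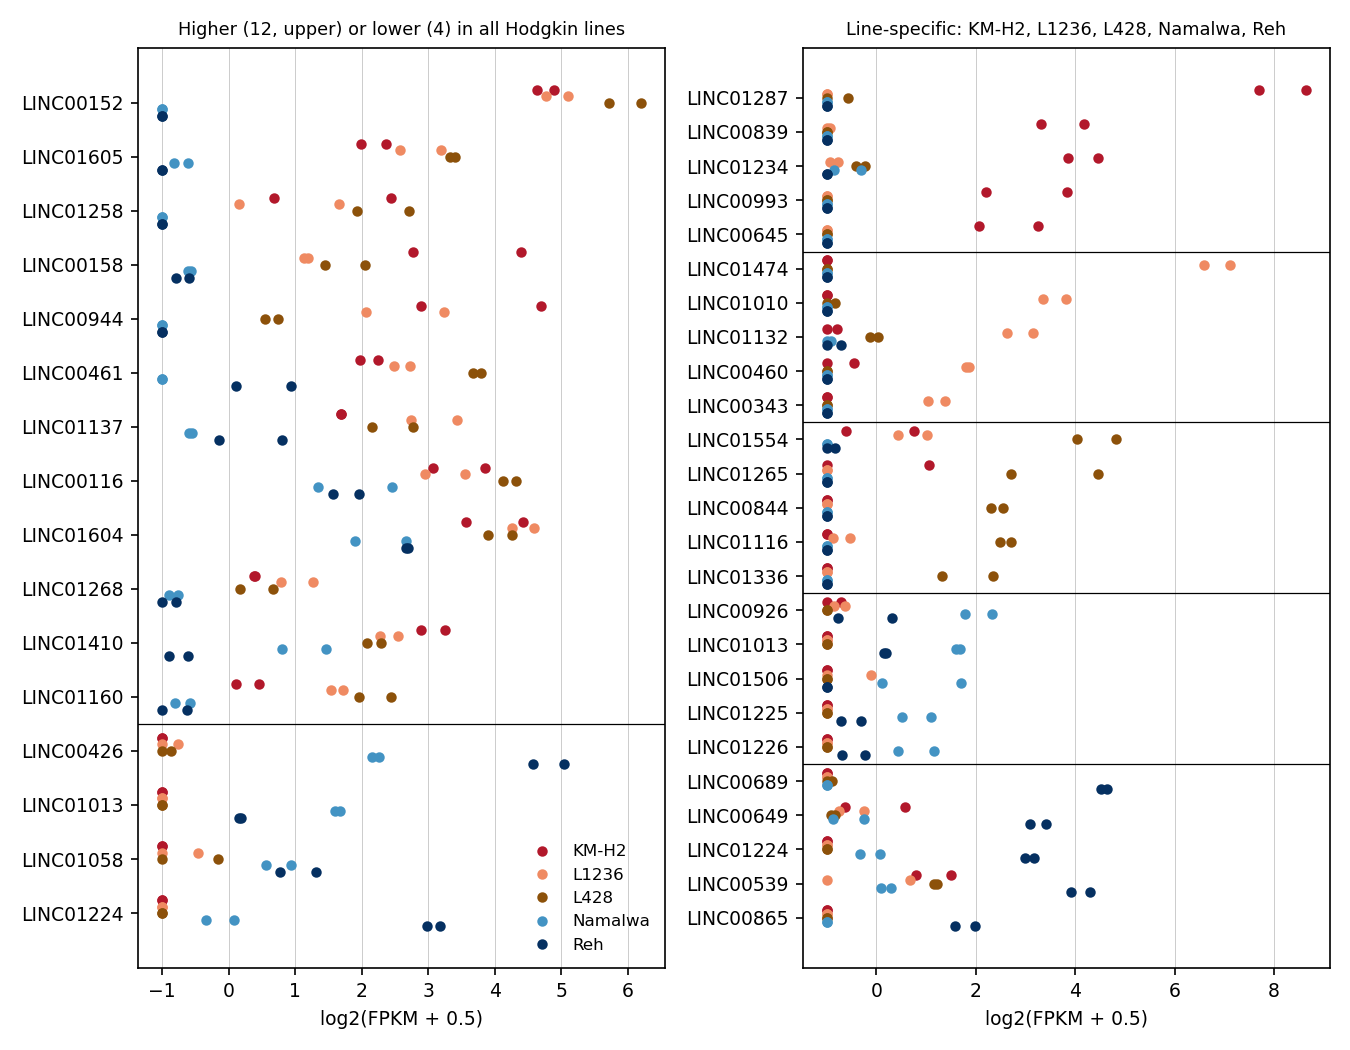
Level, as log2(FPKM + 0.5), of LINC genes in the 5 untreated lines, with a point per library coloured by line. The left panel holds the 12 genes higher and the 4 lower in all cHL lines; the right panel holds up to 5 line-specific genes for KM-H2, L1236, L428, Namalwa and Reh from top to bottom, with LINC01287 and LINC01474 farthest to the right.

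L1236 was marked by LINC01474 (hg19 chr9:75486046-75489051), at 95.4 and 138 FPKM and listed at 0 in all 10 other libraries (smallest difference 7.85 ± 0.21 SE). Its neighbour at 26536 bases, ALDH1A1, which encodes a retinal dehydrogenase, was also L1236-specific (39.4 and 77.8 FPKM) but was present in KM-H2 at 7.22 and 6.38 FPKM. LINC01010 was at 9.65 and 13.5 FPKM in L1236, where the neighbouring SGK1 was at 58.3 and 51.6 FPKM, so that this pair stood out together both in L1236 and in Reh_PMA. LINC01132 (5.66 and 8.33 FPKM), LINC00460 (3.11 and 2.98) and LINC00343 (1.54 and 2.12) completed the leading L1236 genes by smallest log2 difference. In L428, LINC01554 led by this measure at 15.8 and 27.6 FPKM against at most 1.52 FPKM in another library, and LINC01265 (6.01 and 21.6 FPKM), LINC00844 (5.35 and 4.47), LINC01116 (5.09 and 6.07) and LINC01336 (1.99 and 4.58) were at most 1.59 FPKM in another library. LINC01336 is now annotated as the coding gene GCNT4, a glycosyltransferase.

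In Reh, LINC00689 was at 22.5 and 24.5 FPKM in Reh and at most 0.0387 FPKM in another line, and it stayed at 16.8 and 26.9 FPKM with PMA (adjusted p = 0.751 by limma), while VIPR2, a neuropeptide receptor gene that it overlaps on the opposite strand, went from 6.67 and 8.25 FPKM to 0.0366 and 0 FPKM. Of the 16 Reh-specific genes, 10 fell with PMA and 2 rose (62.5% and 12.5%), beside 49% and 14.5% of the 843 genes of any kind that were specific to Reh. With the term for the 4 libraries, 8 of 15 fell and 2 rose (53.3% and 13.3%), beside 36.2% and 9.74% of 852 genes. Those that fell included LINC00649 (10.2 and 8.05 to 3.22 and 3.30 FPKM, adjusted p = 0.0301 by limma, and 0.226 with the term), LINC00539 (14.6 and 19.1 to 5.60 and 5.07, adjusted p = 0.0375 by limma, and 0.0214 with the term) and LINC00865 (3.47 and 2.51 to 0.204 and 0.519). The log2 difference of LINC00649 was -1.35 without the term and -1.05 ± 0.56 SE with it, and that of LINC00539 was -1.56 and -2.44 ± 0.56 SE. Being high in untreated Reh enters both comparisons, which share these libraries. In Namalwa, LINC00926, a B-cell associated transcript near TCF12, was at 4.47 and 2.92 FPKM, LINC01013 at 2.71 and 2.53, LINC01506 at 0.580 and 2.74, LINC01225 at 1.64 and 0.936 and LINC01226 at 1.74 and 0.856 FPKM. All 5 reached 1 FPKM in Namalwa alone, and LINC01506 lost its call in most of the fits that left out a library.

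Promoter windows of broadly expressed LINC genes were richer in CpG than those of narrow ones, given here as a description. Of the 183 LINC genes with an hg19 position, 31 overlapped a coding gene, the median gap to the nearest coding gene was 14918 bases, and 37 lay more than 100000 bases away. The 30 genes at 1 FPKM in all 6 conditions had a median of 24 CpG dinucleotides in the 23 promoter windows found, compared with 6.5 in the 60 windows of genes at 1 FPKM in 1 condition and 14 in all promoters. The median GC share was 60% and 48.5%. Long non-coding RNA genes outside the LINC naming, 33 of which were testable from a list of 40 that includes MALAT1, NEAT1 and GAS5, gave 3 that rose and 6 that fell with PMA, against 14.5% and 16.9% of all genes (2 and 4 with the term for the 4 libraries, against 8.85% and 10%), and 1 higher and 2 lower in all cHL lines, against 4.18% and 3.2%.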

How the data were processed

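RNA-Seq of 5 human lymphoid lines, with 1 of them also treated with PMA, was deposited as a single table of FPKM for 26210 genes in 12 libraries. The authors prepared stranded, ribosomal RNA-depleted libraries and, per the submitters' processing notes, used TopHat2 2.0.11, bedtools and Cuffnorm 2.2.1 with hg19; strand settings are not given in the sources used here. Column numbers could not be tied to replicate labels, so columns were assigned to conditions only.

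The LINC genes and gene lists were chosen with earlier results of these data known. Values were converted to log2(FPKM + 0.5), and the 15062 genes with a mean of at least 1 FPKM in a condition were fitted with limma 3.58.1 in R 4.3.3 (all 12 libraries, variance trend, two-sided, Benjamini-Hochberg threshold 0.05), after tests on simulated data. As FPKM are not counts, no count model was used. Named genes were the 6 highest, the leading 10 rising and 8 falling with PMA, up to 5 per line, up to 6 per direction in cHL, and genes of known role; LINC00114, LINC00487, LINC01160, LINC01268 and LINC01510 were named after their values were seen. The worth of a fragment was the peak of the ratios of values under 0.3 FPKM to those of the first Reh library. Positions came from GENCODE v44lift37 and promoters from RefSeq. Other pseudocounts (0.1, 1), filters, scaling, samples, a block and left-out libraries were tried, and, after seeing the data, a term for a set of 4 libraries.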

Additional observations from a re-analysis of the deposited data

Results flagged for a closer look

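A pair of LINC genes, found by searching all 201 and not chosen by the naming rule, stood on opposite sides of both control lines in different cHL lines. As they were chosen for this pattern, no p is given. LINC00634 (SMIM45) was at 2.58 and 2.31 FPKM in KM-H2 and at 0 and 0.1299 FPKM in L1236, with 1.15 and 1.05 FPKM in Namalwa and 0.995 and 0.548 FPKM in Reh. The log2 difference between KM-H2 and L1236 was 2.39 ± 0.23 SE. LINC01215 was at 23.3 and 38.5 FPKM in L428 and at 0.5999 and 0.788 FPKM in KM-H2, with 8.72 and 10.7 FPKM in Namalwa and 12.6 and 8.99 FPKM in Reh. The log2 difference between L428 and KM-H2 was 4.68.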

How the results depend on the processing

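Of 53 calls on named genes, 43 held under every other setting and 42 with each library left out, none was reversed, and 19 of 438 and 64 of 636 values fell short of the threshold. A term for the set of 4 libraries, chosen after seeing the data, moved no count of LINC genes by over 1.5 times. It took the shares of all genes that rose and fell with PMA from 14.5% and 16.9% to 8.85% and 10%. It left fewer degrees of freedom, and the error of the PMA difference grew for some genes (LINC00342, 0.72 to 0.99 SE) and shrank for others (LINC00888, 0.56 to 0.49 SE). LINC00342, LINC01138, LINC01347 (falling with PMA), LINC00944, LINC01258 and LINC01224 (cHL lines) lost their calls. The PMA log2 differences of LINC00342, LINC01138 and LINC01347 went from -2.16 to -1.38, from -2.23 to -0.52 and from -2.63 to -0.5. Counts of LINC genes moved by over 1.5 times in few settings. With a pseudocount of 0.1, 7 were lower in all cHL lines. With a filter on the mean over all libraries, which left 162 of the 201 genes, 23 were specific to KM-H2 and 2 to Namalwa. Contrasting the mean of the cHL lines with the mean of the control lines, a looser rule, gave 81 higher and 38 lower, against 29.5% and 25.4% of all genes. With 1 library left out, which assumes that a lone library varies like the others, the counts ranged from 23 to 28 (rising with PMA), 15 to 41 (falling), 6 to 12 (higher in cHL), 2 to 5 (lower in cHL), 31 to 40 (KM-H2), 8 to 10 (L1236), 15 to 22 (L428), 3 to 6 (Namalwa) and 11 to 16 (Reh); the cause was not tested. Deviations of columns with the same number correlated by 0.272 to 0.627 among the cHL lines and by 0.324 between Namalwa and Reh, but by -0.046 to 0.167 for the other pairs, so the numbers did not establish pairing. A replicate block on the column number gave 27 rising and 41 falling with PMA, 12 higher and 4 lower in cHL, and 36, 10, 18, 5 and 16 line-specific genes for KM-H2, L1236, L428, Namalwa and Reh. Without fragment counts, the limit of detection of each gene is unknown.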
